A study of Homo sapiens with 15 samples.

Results

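Transcripts of 9 genes that cut, cap, bundle or build actin filaments were examined in 3 human acute myeloid leukemia (AML) cell lines with and without knockdown of the ubiquitin ligase RNF5 (RNF5-KD). The genes were GSN, CAPG, LSP1, FMNL1, FMNL2, FMNL3, DIAPH1, DIAPH2 and DAAM1. They were taken by gene symbol, 1 gene identifier each, from the 57820 identifiers in the files. All 9 were above 0 in every library and passed the authors' filter on low counts in each line. The members were selected on their known roles and with their normalized read counts and fold changes from earlier results of these data in view, so the responses to RNF5-KD below are a description of these genes and give no support to the list as a group. The symbol LSP1 also stands on a second identifier, which the annotation names LSP1P1, a processed pseudogene on chromosome 13 from 25591542 to 25591674 of GRCh37, and which is listed at 0 in every library.

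The cells were MOLM-13, U937 and HL-60, which are established AML lines grown in culture. Controls carried the empty lentiviral vector pLKO, and RNF5-KD cells carried that vector with a short hairpin RNA against RNF5 (shRNF5). There were 15 libraries, of which 3 pLKO and 2 shRNF5 came from MOLM-13, 2 of each from U937 and 3 of each from HL-60. The sources used here do not say which hairpin was sequenced. They give the harvest as day 7 in the sample protocol and as day 5 in the series design, and they differ on whether the library kit primed at the 3′ ends of transcripts or read whole poly(A) RNA. Nothing states that replicates came from separate transductions, so the p-values measure the spread between these libraries, which may be technical.

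Actin filaments grow at a fast, barbed end and are remodelled as a leukocyte crawls, engulfs particles or divides. Gelsolin (GSN) severs filaments and caps the new barbed ends when calcium rises, and CAPG is a relative that caps barbed ends without severing. LSP1 is a leukocyte protein that binds filaments and is a substrate of the p38 and MK2 kinases. Formins are dimers that sit on barbed ends and lengthen unbranched filaments. They are held inactive by folding on themselves. FMNL1, FMNL2 and FMNL3 are formin-like proteins, of which FMNL1 is the one known best from blood cells. DIAPH1 and DIAPH2 are diaphanous formins, and DAAM1 links formin activity to Wnt signalling through Dishevelled. Many genes of the actin cytoskeleton are controlled by SRF, whose cofactors MRTF are held in the cytoplasm by unpolymerized actin.

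Start regions of the members were read from RefSeq on GRCh38.p14, where 8 of the 9 members had an entry and LSP1 had none. The 250 bases before the start are shown for GSN and CAPG, which both rose with RNF5-KD in HL-60, and for FMNL2, which fell there by more than any other member. RefSeq gives 6 starts for GSN, 4 for CAPG and 1 for FMNL2. The most upstream start is shown, and the files do not say which start these cells used. The windows are chr9:121201233-121201482 on the forward strand for GSN, chr2:85414017-85414266 on the reverse strand for CAPG and chr2:152334924-152335173 on the forward strand for FMNL2. Each is written 5′ to 3′ on the gene's strand, and capitals mark matches on either strand to GGGCGG, the GC box, and to TGANTCA, the AP-1 element.

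GSN: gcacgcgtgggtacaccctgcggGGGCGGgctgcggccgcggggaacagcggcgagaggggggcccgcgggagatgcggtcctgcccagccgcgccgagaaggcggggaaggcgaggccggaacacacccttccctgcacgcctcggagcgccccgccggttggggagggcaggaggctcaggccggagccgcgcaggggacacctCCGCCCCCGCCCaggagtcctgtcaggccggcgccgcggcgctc

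CAPG: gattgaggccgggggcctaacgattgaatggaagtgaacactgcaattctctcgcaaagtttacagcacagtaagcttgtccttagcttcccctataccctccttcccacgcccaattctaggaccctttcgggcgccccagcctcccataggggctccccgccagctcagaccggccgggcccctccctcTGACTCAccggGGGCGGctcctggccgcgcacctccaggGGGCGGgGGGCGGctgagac

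FMNL2: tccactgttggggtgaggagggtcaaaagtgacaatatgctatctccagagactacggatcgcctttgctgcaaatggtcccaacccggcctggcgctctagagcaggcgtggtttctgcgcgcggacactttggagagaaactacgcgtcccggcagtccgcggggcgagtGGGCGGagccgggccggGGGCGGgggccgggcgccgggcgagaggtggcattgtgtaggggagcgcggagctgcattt

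The CAPG window held 1 match to TGANTCA and 3 to GGGCGG, the GSN window held 3 to GGGCGG and the FMNL2 window 2. Of all 35116 RefSeq windows of this length, 42.6% held GGGCGG and 6.57% held TGANTCA. Of the 17 windows of the 8 members, 11 held GGGCGG and 1 held TGANTCA. The windows of the other CAPG starts held neither. The CArG box, the element that SRF binds, was found in none of the 17 windows of the 8 members and in 1.16% of all windows. GAGGAA, the core of the element of the myeloid factor PU.1, was found in 4 of the 17 windows and in 23.6% of all. These matches describe letters in the windows and say nothing of binding.

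RNF5 itself was checked first. With pLKO its normalized read count was 1223, 1017 and 1020 in MOLM-13, 648 and 843 in U937, and 506, 689 and 545 in HL-60. With shRNF5 it was 76 and 81 in MOLM-13, 46 and 74 in U937, and 37, 133 and 43 in HL-60. Its log2 fold change was -3.77, -3.64 and -3.25 in the same order (limma adjusted p of 0.000336, 0.00287 and 0.00125), and HL-60 shRNF5 replicate 2 kept the most RNF5 transcript of the knockdown libraries. The step size of the rounded values put the reads counted at 9700000 to 63100000 per library. Both MOLM-13 shRNF5 libraries were deeper than the 3 pLKO libraries. Across genes, log2 fold change and transcript length had a Spearman correlation of 0.277 for MOLM-13, 0.155 for U937 and -0.216 for HL-60. Of 10 leukocyte and myeloid markers, 9 were above 0 in each line and CD68 was listed at 0 in all. Each library was also scaled so that its values sum to 1000000, which gives a scaled value for every gene. The summed scaled value of 5 promyelocytic granule genes moved with RNF5-KD in opposite directions. It was between 2894 and 3241 with pLKO and between 1044 and 1229 with shRNF5 in U937. In HL-60 it was between 7338 and 9118 with pLKO and between 10643 and 15636 with shRNF5. In MOLM-13 the 2 ranges were 3015 to 3685 and 3244 to 3291. The 5 monocytic markers summed to between 10.99 and 71.04 in every library, with CD14 listed at 0 in U937 and HL-60. Of 16 markers of other cell types, from 13 to 14 were listed at 0 in each line, including the T cell, hemoglobin and epithelial markers CD3E, HBB and EPCAM. The part of depth, transcript length and the granule program in the results below was not tested, except where a value with a correction for length is given.

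With the empty pLKO vector, the 3 lines differed in which of the 9 genes they carried most of. The authors normalized each line on its own, so levels were set across lines only as scaled values, and these are descriptions with no test. To compare genes, the scaled values were divided by the length of the canonical transcript in GENCODE, in kilobases, which is fair only if whole transcripts were read. On that scale CAPG led in MOLM-13 at 126 ± 29.9 (SD, n = 3) and in U937 at 778 ± 308 (SD, n = 2), and DIAPH1 led in HL-60 at 162 ± 10.6 (SD, n = 3). The lowest member was FMNL2 in MOLM-13, at 0.512 ± 0.071 (SD, n = 3). It was FMNL3 in U937, at 1.76 ± 0.55 (SD, n = 2), and in HL-60, at 0.812 ± 0.189 (SD, n = 3). In MOLM-13 the order from high to low was CAPG, DIAPH1, GSN, FMNL1, DIAPH2, LSP1, FMNL3, DAAM1 and FMNL2. The libraries of DIAPH1 and GSN, of DIAPH2 and LSP1, and of FMNL3 and DAAM1 overlapped. In U937 it was CAPG, DIAPH1, LSP1, FMNL1, DIAPH2, GSN, FMNL2, DAAM1 and FMNL3, with overlaps from DIAPH1 through FMNL1 and from DIAPH2 through FMNL2. In HL-60 it was DIAPH1, CAPG, FMNL1, LSP1, GSN, DIAPH2, DAAM1, FMNL2 and FMNL3, and the neighbours FMNL1 and LSP1, GSN and DIAPH2, and DAAM1 and FMNL2 overlapped.

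**Figure D1:**
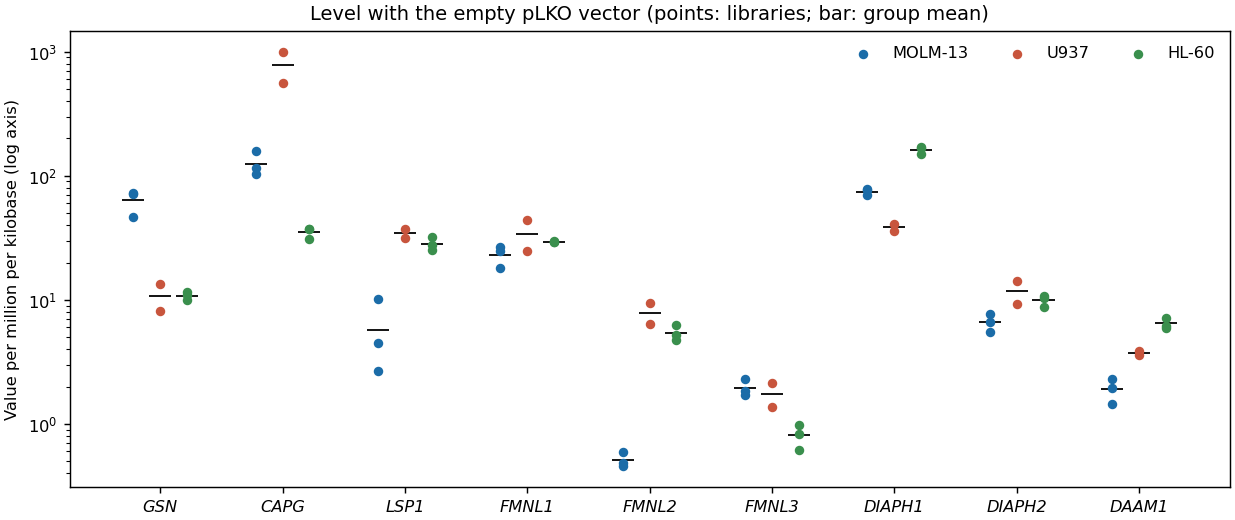
Level of each member with the empty pLKO vector, as the scaled value (library sum 1000000) per kilobase of canonical transcript, on a log axis. Points are libraries, colored by line, and bars are group means. CAPG in U937 and FMNL2 in MOLM-13 mark the top and bottom of the plot.

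GSN was a MOLM-13 gene among these lines. Its scaled value with pLKO for MOLM-13 was 165 ± 37.7 (SD, n = 3), against 28.0 ± 9.8 (SD, n = 2) in U937 and 28.1 ± 2.0 (SD, n = 3) in HL-60, where the latter 2 lines overlapped. FMNL2 had a scaled value of 44.5 ± 12.4 (SD, n = 2) in U937 and 30.4 ± 4.3 (SD, n = 3) in HL-60 but of 2.88 ± 0.40 (SD, n = 3) in MOLM-13. CAPG was at 972 ± 385 (SD, n = 2) in U937, 157 ± 37.4 (SD, n = 3) in MOLM-13 and 44.01 ± 4.59 (SD, n = 3) in HL-60, with no overlap between lines. LSP1 was low in MOLM-13, at 9.14 ± 6.16 (SD, n = 3), against 54.5 ± 6.0 (SD, n = 2) in U937 and 44.9 ± 5.7 (SD, n = 3) in HL-60, which overlapped each other. DIAPH1 was highest in HL-60 and lowest in U937, and DAAM1 was highest in HL-60 and lowest in MOLM-13, with no overlap between lines for either gene. FMNL3 was lowest in HL-60 and DIAPH2 in MOLM-13, while the other 2 lines overlapped for each. The U937 libraries of FMNL1 overlapped those of both other lines.

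A gene was called changed in a line at a limma adjusted p under 0.1, over all genes tested in that line, with an absolute log2 fold change over 0.4. The log2 fold changes are on the log2(value + 1) scale, which understates changes of low values. In MOLM-13, DIAPH1 rose and LSP1 fell, 2 of 9 members, where 2.04% of all 13026 tested genes were called. In U937, FMNL3 rose and FMNL2 fell, again 2 of 9, where 15.7% of 13165 genes were called. In HL-60, GSN and CAPG rose and LSP1, FMNL2 and FMNL3 fell, 5 of 9, where 25.9% of 12570 genes were called. The pLKO and shRNF5 libraries did not overlap for 7, 6 and 5 members in the order MOLM-13, U937 and HL-60, and for 38.7%, 59.2% and 38.5% of all tested genes. FMNL1, DIAPH2 and DAAM1 were called in no line in these fits, and among them an unadjusted p under 0.05 was seen for DIAPH2 in HL-60 alone. In these bulk libraries, a change in the share of cells that make a transcript and a change in transcript per cell cannot be told apart.

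**Figure D2:**
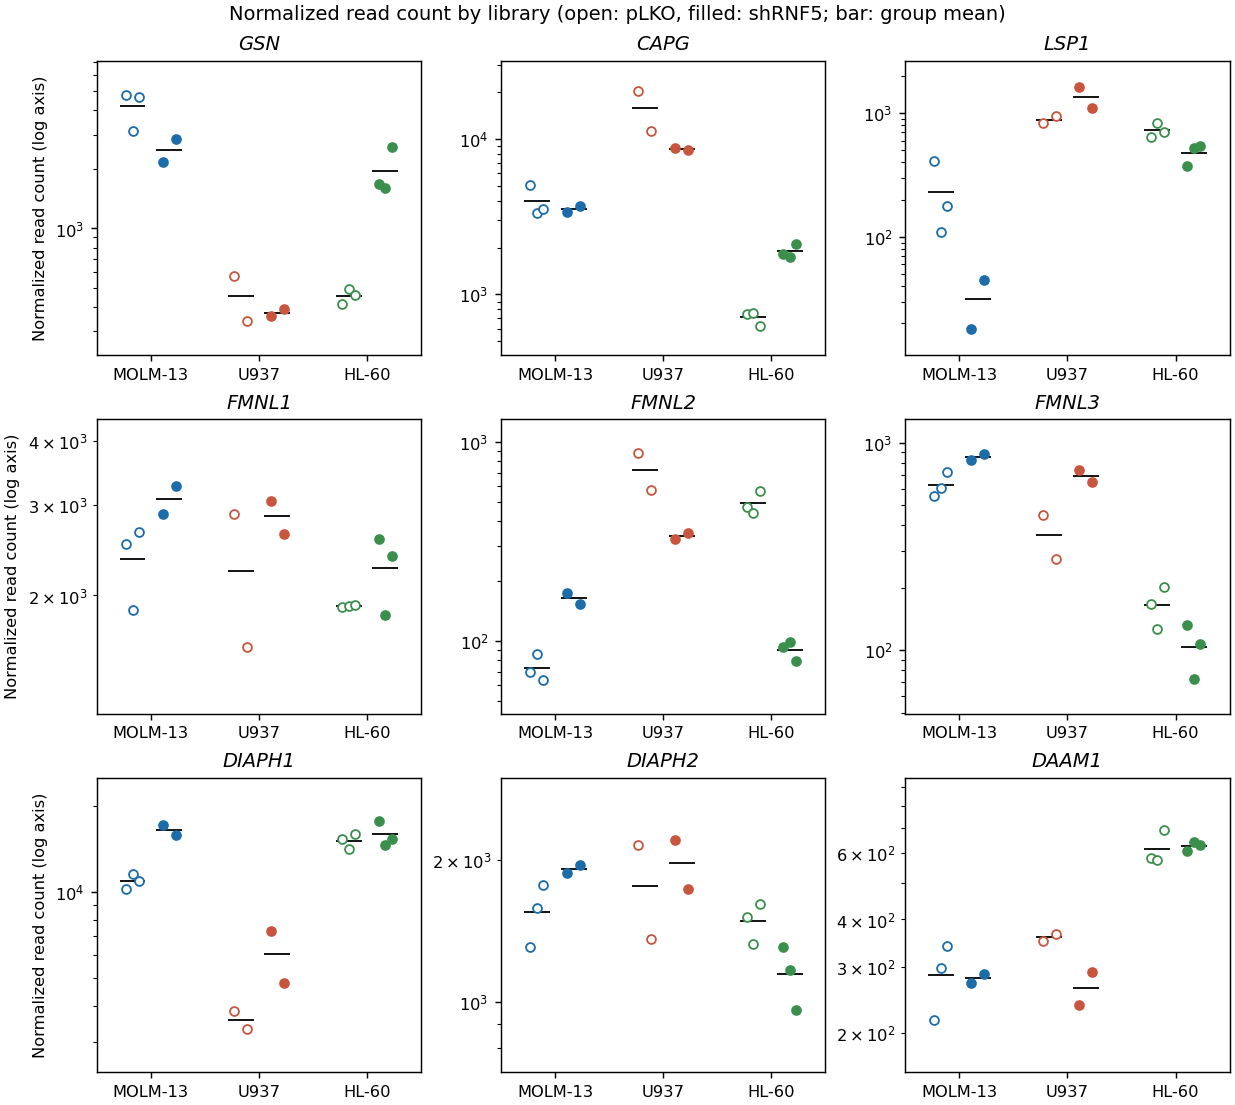
Normalized read count of each member in all 15 libraries, on a log axis. Open points are pLKO libraries, filled points shRNF5 libraries, and bars are group means. In HL-60 the 3 shRNF5 libraries lie above pLKO for GSN and CAPG and below it for FMNL2 and LSP1.

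GSN, on chromosome 9 from 123970072 to 124095121 of GRCh37, was measured at 415, 491 and 461 in the HL-60 pLKO libraries and at 1691, 1601 and 2601 with shRNF5. Each knockdown library was above every control, and the log2 fold change was 2.07 ± 0.18 (SE, limma adjusted p = 0.000225). In MOLM-13 the values were 4776, 3142 and 4652 with pLKO and 2178 and 2841 with shRNF5. The shRNF5 libraries were the lower ones there, but GSN was not called (log2 fold change -0.73 ± 0.22 (SE), limma adjusted p = 0.169). In U937 they were 575 and 337 with pLKO and 358 and 388 with shRNF5, which overlap. The scaled value of GSN in HL-60 with shRNF5 was 119 ± 30.4 (SD, n = 3), beside 100.1 ± 20.2 (SD, n = 2) in MOLM-13 with shRNF5.

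CAPG, on chromosome 2 from 85621876 to 85645555, moved with GSN in HL-60. Its normalized read count there was 747, 764 and 629 with pLKO and 1832, 1750 and 2110 with shRNF5. The groups lie well apart, at a log2 fold change of 1.41 ± 0.13 (SE, limma adjusted p = 0.000353). In U937, the line with the most CAPG, the values were 20504 and 11219 with pLKO and 8723 and 8452 with shRNF5. The knockdown libraries were lower than both controls, which differed from each other by more than the group means did, and CAPG was not called (log2 fold change -0.82 ± 0.31 (SE), limma adjusted p = 0.121). A single limma fit of the 15 libraries called it in U937 (adjusted p = 0.0209), as did the U937 fit without pLKO replicate 3 (0.0702) and the fit of genes with a mean value of at least 50 (0.0996). In MOLM-13 they were 5089, 3318 and 3566 with pLKO and 3375 and 3700 with shRNF5, which overlap.

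Among the other genes of the gelsolin superfamily, 5 of 8 list genes were tested in MOLM-13 and HL-60 and 6 in U937, GSN and CAPG included. None was called in MOLM-13 or U937 by limma, where 1 and 2 had an unadjusted p under 0.05. In HL-60 SVIL, a membrane-linked relative that binds myosin and actin, fell from between 562 and 753 to between 336 and 516 (log2 fold change -0.69 ± 0.19 (SE), limma adjusted p = 0.0269). FLII and VILL were not called in any line, and SCIN and VIL1 did not pass the filter in any line. The list median for MOLM-13 was -0.15, for U937 -0.04 and for HL-60 0.30, against 0.01, 0.00 and 0.00 over all tested genes.

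LSP1, on chromosome 11 from 1872134 to 1913497, was measured at 410, 110 and 177 in MOLM-13 with pLKO and at 18 and 45 with shRNF5. Both knockdown libraries were below the 3 controls, which differed widely among themselves, and the log2 fold change was -2.77 ± 0.58 (SE, limma adjusted p = 0.0853). About 45 reads lay behind each of the shRNF5 values and from 65 to 216 behind each control. This call was lost without pLKO replicate 2 (limma adjusted p = 0.173), pLKO replicate 3 (0.126), shRNF5 replicate 1 (0.495) and shRNF5 replicate 2 (0.209). In HL-60 the values were 639, 838 and 708 with pLKO and 372, 523 and 539 with shRNF5, which do not overlap, and LSP1 fell by 0.62 ± 0.17 (SE) on the log2 scale (limma adjusted p = 0.0316). The HL-60 call was lost when the 15 libraries were fitted together (adjusted p = 0.301). In U937 LSP1 was at 828 and 942 with pLKO and at 1623 and 1093 with shRNF5. Both knockdown libraries were higher than the controls, and LSP1 was not called (log2 fold change 0.59 ± 0.27 (SE), limma adjusted p = 0.193).

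FMNL2, a formin-like protein of filopodia and lamellipodia, lies on chromosome 2 from 153191688 to 153506340. In HL-60 its normalized read count was 470, 439 and 571 with pLKO and 93, 99 and 79 with shRNF5. The groups lie far apart, with a mean 5.46 times higher in the controls and a log2 fold change of -2.43 ± 0.17 (SE, limma adjusted p = 8.44e-05). In U937 it was 878 and 573 with pLKO and 325 and 351 with shRNF5, and it fell there too, by 1.07 ± 0.30 (SE) on the log2 scale (limma adjusted p = 0.0604). The U937 call was lost without pLKO replicate 2 (limma adjusted p = 0.264), shRNF5 replicate 1 (0.620) and shRNF5 replicate 3 (0.268). In MOLM-13, where FMNL2 was scarce, it was 70, 86 and 64 with pLKO and 175 and 153 with shRNF5. Both knockdown libraries were about 2 times the controls, and the log2 fold change of 1.16 ± 0.26 (SE) lay just short of the threshold (limma adjusted p = 0.105). It was called when the 15 libraries were fitted together (adjusted p = 0.0246), with a pseudocount of 10 (0.0967) and without pLKO replicate 1 (0.0760). From 25 to 51 reads lay behind each MOLM-13 pLKO value and 435 and 152 behind the shRNF5 values.

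FMNL3, the third formin-like protein, lies on chromosome 12 from 50030282 to 50101948 on the reverse strand, and its exons share 2643 bases with those of PRPF40B on the opposite strand. It was measured at 447 and 276 in U937 with pLKO and at 743 and 649 with shRNF5. The groups do not overlap, and FMNL3 rose by 0.98 ± 0.31 (SE) on the log2 scale (limma adjusted p = 0.0816). PRPF40B, a splicing factor, was at 306 and 278 with pLKO and at 125 and 157 with shRNF5 in U937, and so moved the other way. In HL-60 FMNL3 was at 168, 127 and 203 with pLKO and at 133, 73 and 107 with shRNF5. It was called lower there (log2 fold change -0.68 ± 0.26 (SE), limma adjusted p = 0.0864), although the libraries overlap, and PRPF40B was between 110 and 140 in all 6. In MOLM-13 FMNL3 was at 555, 607 and 722 with pLKO and at 831 and 881 with shRNF5, higher in both but not called (log2 fold change 0.45 ± 0.17 (SE), limma adjusted p = 0.247). The canonical transcript of FMNL3 is 12625 bases, the longest of the 9. With a correction for transcript length the HL-60 call was lost (log2 fold change -0.40, limma adjusted p = 0.248), as it was without pLKO replicate 1 (adjusted p = 0.173), pLKO replicate 3 (0.290), shRNF5 replicate 2 (0.221) and shRNF5 replicate 3 (0.158). The U937 call was lost without any 1 of its 4 libraries (limma adjusted p from 0.161 to 0.643).

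FMNL1 was plentiful in all 3 lines and was not called in any line by the fits without a replicate block. It was between 1876 and 2662 with pLKO and at 2887 and 3272 with shRNF5 in MOLM-13, with no overlap. In U937 it was at 2880 and 1586 against 3064 and 2642, and in HL-60 at 1897, 1907 and 1920 against 2575, 1834 and 2388, which overlap. The log2 fold changes were 0.40, 0.41 and 0.23 with limma adjusted p of 0.306, 0.395 and 0.256. Its exons share 648 bases with the lncRNA FMNL1-DT on the opposite strand.

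DIAPH1, on chromosome 5 from 140894583 to 140998622, was measured at 10245, 11517 and 10910 in MOLM-13 with pLKO and at 17166 and 15768 with shRNF5. The 2 groups lie apart, and DIAPH1 rose by 0.60 ± 0.13 (SE) on the log2 scale (limma adjusted p = 0.0937). In U937 it was at 3844 and 3323 with pLKO and at 7301 and 4811 with shRNF5. The shift was of like size there but was not called (log2 fold change 0.73 ± 0.27 (SE), limma adjusted p = 0.114), whereas fitting the 15 libraries together called U937 (adjusted p = 0.0103) and not MOLM-13 (0.107). In HL-60, with the most DIAPH1, it was at 15266, 14142 and 15891 with pLKO and at 17723, 14637 and 15292 with shRNF5, which overlap. The MOLM-13 call was lost without pLKO replicate 2 (limma adjusted p = 0.206), pLKO replicate 3 (0.120), shRNF5 replicate 1 (0.716) and shRNF5 replicate 2 (0.606).

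DIAPH2, an X-linked diaphanous formin, was at 1518, 1327 and 1610 with pLKO and at 1310, 1171 and 963 with shRNF5 in HL-60. All 3 knockdown libraries were lower than the controls. Its limma adjusted p of 0.0855 was under the threshold, but the log2 fold change of -0.38 ± 0.14 (SE) was not past 0.4. It was called lower without pLKO replicate 2 (-0.46, limma adjusted p = 0.0633) and without shRNF5 replicate 1 (-0.48, 0.0551). In MOLM-13 it was between 1305 and 1770 with pLKO and at 1873 and 1954 with shRNF5, and in U937 at 2157 and 1361 against 2205 and 1737. DAAM1 was not called in any line. It was between 217 and 341 in MOLM-13 and between 576 and 690 in HL-60 whichever construct was carried, with log2 fold changes of -0.01 and 0.03. In U937 it was at 350 and 367 with pLKO and at 237 and 290 with shRNF5 (log2 fold change -0.45 ± 0.31 (SE), limma adjusted p = 0.365).

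**Figure D3:**
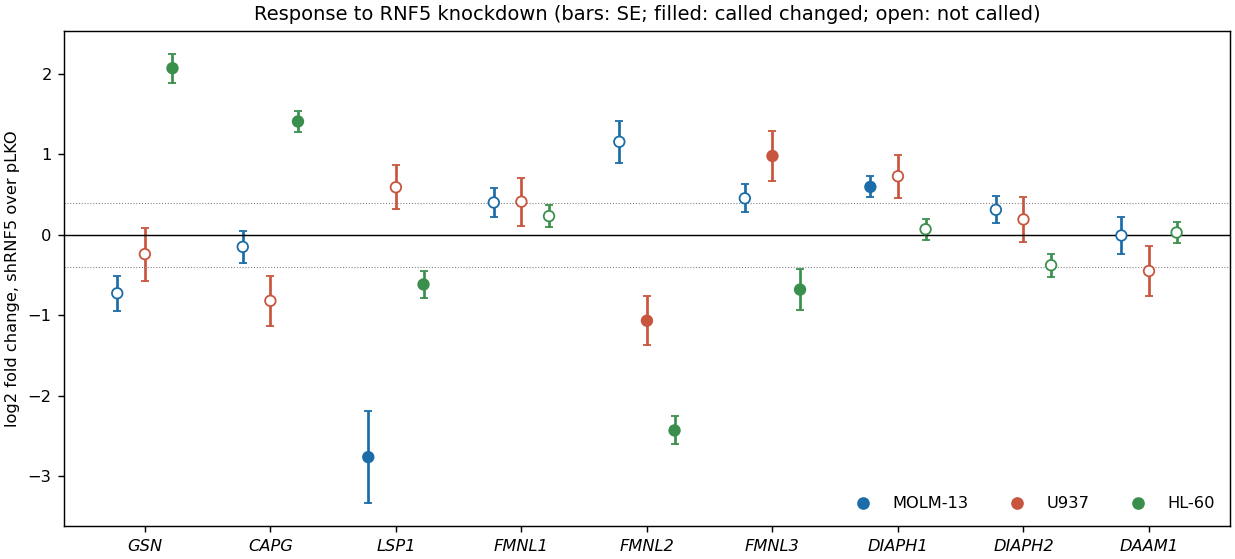
The log2 fold change of each member, shRNF5 over pLKO, in the 3 lines. Bars are standard errors from limma, filled points were called changed and open points were not, and dotted lines mark 0.4 in each direction. FMNL2 lies above 0 in MOLM-13 and below it in U937 and HL-60, and GSN and CAPG lie above 0 in HL-60 and below it in the other lines, although GSN in U937 and CAPG in MOLM-13 changed sign when 1 library was left out.

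Over the 15 genes of the formin family, 10 passed the filter in MOLM-13 and U937 and 11 in HL-60. The called formins were DIAPH1 in MOLM-13, FMNL2 and FMNL3 in U937, and FMNL2 and FMNL3 in HL-60, all of them members described above. The share of all tested genes called was 2.04%, 15.7% and 25.9% in the same order of lines. DIAPH3, FHOD1 and INF2, the other formins with values over 150 in every library, were not called in any line. DIAPH3, which acts in cytokinesis, was closest, at between 897 and 1000 with pLKO and between 1112 and 1310 with shRNF5 in HL-60 (log2 fold change 0.35 ± 0.12 (SE), limma adjusted p = 0.0667, under the fold threshold). The family median for MOLM-13 was 0.36, for U937 0.13 and for HL-60 0.03.

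Whether a member's response differed between lines was tested as an interaction, in one limma fit of all 15 libraries over the 11072 genes tested in every line. Each line enters 2 of the 3 comparisons, so they are not independent. Between MOLM-13 and U937, 2 members differed at an adjusted p under 0.1, where 15.4% of genes did. Between MOLM-13 and HL-60, 5 members differed, where 8.82% of genes did, and between U937 and HL-60 5 members differed, where 37.2% did. FMNL2 differed in all 3 comparisons. Its log2 fold change in MOLM-13 was 2.23 ± 0.34 (SE) above that in U937 (limma adjusted p = 0.00782) and 3.59 ± 0.31 (SE) above that in HL-60 (3.45e-05), and U937 was 1.37 ± 0.32 (SE) above HL-60 (0.00734).

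GSN responded differently in HL-60 than in the other lines. The log2 fold change in HL-60 was the higher one in both comparisons, with a difference of -2.80 ± 0.34 (SE) for MOLM-13 minus HL-60 (limma adjusted p = 0.00126) and of -2.31 ± 0.36 (SE) for U937 minus HL-60 (0.000742). CAPG showed the same order, at -1.56 ± 0.30 (SE) for MOLM-13 minus HL-60 (limma adjusted p = 0.0158) and -2.23 ± 0.31 (SE) for U937 minus HL-60 (0.0005). Without MOLM-13 shRNF5 replicate 1 the CAPG difference between MOLM-13 and HL-60 was lost (adjusted p = 0.126). Neither gene passed the threshold between MOLM-13 and U937 (limma adjusted p of 0.421 for GSN and 0.203 for CAPG), although CAPG did without MOLM-13 pLKO replicate 1 (0.0832) or U937 pLKO replicate 3 (0.0136).

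LSP1, whose difference between lines was known from earlier results, had a difference of -3.36 ± 0.63 (SE, limma adjusted p = 0.0107) for MOLM-13 minus U937 and of -2.15 ± 0.57 (SE, 0.0507) for MOLM-13 minus HL-60. The second was lost without MOLM-13 shRNF5 replicate 1 (adjusted p = 0.288), HL-60 pLKO replicate 1 (0.117), HL-60 pLKO replicate 3 (0.107) or HL-60 shRNF5 replicate 3 (0.141). The log2 fold change of FMNL3 was higher in U937 than in HL-60 by 1.66 ± 0.38 (SE, limma adjusted p = 0.00614). Its log2 fold change in MOLM-13 was 1.14 ± 0.36 (SE) above that in HL-60 (0.0880), which was lost with the correction for transcript length (difference 0.57, adjusted p = 0.316) and without each of 8 libraries in turn (adjusted p from 0.129 to 0.269). DIAPH1 differed between U937 and HL-60 by 0.66 ± 0.24 (SE, limma adjusted p = 0.0507), which was lost without U937 pLKO replicate 3 (0.122), U937 shRNF5 replicate 1 (0.294) or HL-60 pLKO replicate 3 (0.102). FMNL1, DIAPH2 and DAAM1 passed the threshold in no comparison of this fit, and DIAPH2 between MOLM-13 and HL-60 was the one of these at an unadjusted p under 0.05 (0.0221). Between U937 and HL-60, DIAPH2 passed without U937 pLKO replicate 2 (limma adjusted p = 0.0348), and with the correction for transcript length DAAM1 (0.0585) and LSP1 (0.0629) passed.

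**Figure D4:**
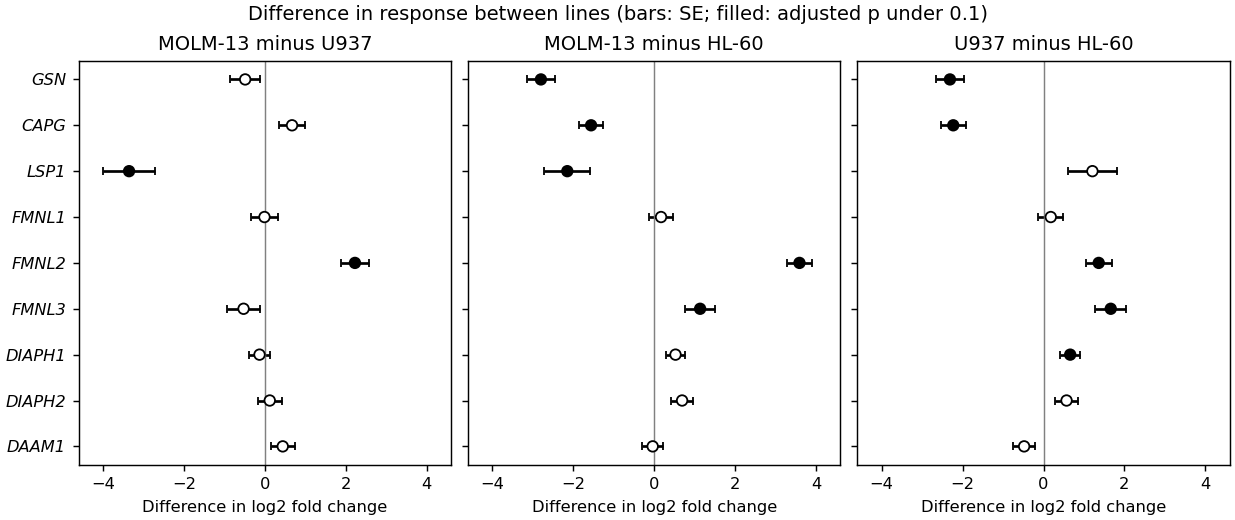
Difference in the log2 fold change of each member between lines, first line minus second. Bars are standard errors, and filled points passed an adjusted p under 0.1 in the fit of 15 libraries. FMNL2 is the member filled in all 3 panels.

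The genes whose triple of log2 fold changes lay closest to each member were sought among 9625 genes with a mean value of at least 50 in every line, by Euclidean distance. CAPG had IRF7 at a distance of 0.081 and the lysosomal protease gene CTSD at 0.118. FMNL3 had SLC7A6 at 0.047 and RP11-730G20.2 at 0.060, and DIAPH2 had CCNT1 at 0.032 and SHPRH at 0.035. FMNL1 had FNBP1L at 0.051 and CDK6 at 0.053, DIAPH1 had GALNT7 at 0.092 and NSF at 0.094, and DAAM1 had HSCB at 0.052 and ENTPD6 at 0.053. GSN had S100A4 at 0.511, a calcium-binding protein of motile cells, and GLIPR2 at 0.568. The nearest genes lay further from LSP1 and FMNL2, with NFATC2 at 0.893 and GAPT at 1.36 from LSP1 and LINC00263 at 1.35 and PITPNC1 at 1.45 from FMNL2. The distance was not scaled for the size or the error of the changes, and the log2 fold change of LSP1 in MOLM-13 had an SE of 0.58. Each log2 fold change of a member had an SE of about 0.13 or more. That is above the distances of all members but GSN, LSP1 and FMNL2, so those closest genes are a description.

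The surrounding actin machinery was described by lists of genes for each function. Counts of rises and falls in these lists should be read beside the share of all tested genes that met the same thresholds. That share was 2.04% for MOLM-13, 15.7% for U937 and 25.9% for HL-60. Whether any list exceeded it was not tested, so the counts are descriptions. Of 14 genes that cap barbed ends or act with cofilin, 1 rose in MOLM-13, 3 rose and 1 fell in U937, and 5 rose in HL-60. TWF1, which binds actin monomers and caps filaments, rose in U937 from between 207 and 245 to between 408 and 664 (log2 fold change 1.21, limma adjusted p = 0.0562). Its relative TWF2 fell in that line (-0.81, 0.0826). CFL2, a cofilin that severs filaments, rose in HL-60 from between 236 and 257 to between 376 and 742 (log2 fold change 1.12, limma adjusted p = 0.00728). The list medians for MOLM-13, U937 and HL-60 were -0.07, 0.45 and 0.32.

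Of the Arp2/3 complex, which branches filaments, and its activators, none of 22 tested genes was called in MOLM-13 by limma (2 at an unadjusted p under 0.05). In U937, 2 of 21 rose, and in HL-60, 3 of 22 rose and 2 fell. ARPC3, a subunit of the complex, rose in HL-60 from between 1535 and 1949 to between 3623 and 4422 (log2 fold change 1.18, limma adjusted p = 0.00112), and ARPC4 rose in U937 (0.94, 0.0645). CYFIP2, a part of the WAVE complex that activates Arp2/3, fell in HL-60 (log2 fold change -1.45, limma adjusted p = 0.0198), as did CTTN, cortactin (-1.08, 0.0564). The values of CTTN were low, between 30 and 46 with pLKO and between 11 and 24 with shRNF5. In the same order the medians were 0.12, 0.23 and 0.06.

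Of 9 tested actin and monomer-binding genes none was called in MOLM-13 by limma (4 at an unadjusted p under 0.05), and 1 of 8 rose in U937 and 1 of 8 in HL-60. CAP1, which recycles actin monomers, rose in U937 from between 4016 and 5103 to between 9508 and 10203 (log2 fold change 1.12, limma adjusted p = 0.0319). TMSB10, a thymosin that holds monomers, was called in HL-60 (0.61, 0.0944) although its libraries overlap. Medians of this list were -0.06, 0.09 and 0.10.

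Bundling, crosslinking and membrane linker genes, a list that holds LSP1, had 3 rises and 2 falls among 21 genes in MOLM-13, 7 rises among 21 in U937, and 6 rises and 2 falls among 20 in HL-60. MYO1E, a membrane-binding myosin, rose in MOLM-13 from between 8 and 10 to 39 and 85 (log2 fold change 2.61, limma adjusted p = 0.0780). Each read stood for a value of 1.69 to 2.56 in the MOLM-13 pLKO libraries, so few reads lay behind the MYO1E controls. The shRNF5 libraries were deeper. MARCKSL1 rose in U937 (1.99, 0.0880), with its 2 controls at 124 and 857. MARCKS, a membrane protein that binds filaments, fell in MOLM-13 together with LSP1, from between 533 and 950 to 232 and 297 (log2 fold change -1.50, limma adjusted p = 0.0682). The list medians were 0.03, 0.61 and 0.01.

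SRF, its cofactors and actin-responsive targets had 2 rises among 15 genes in MOLM-13, 6 rises and 1 fall among 14 in U937, and 2 rises and 2 falls among 16 in HL-60. TPM4, a tropomyosin, rose in U937 from between 4762 and 5364 to between 11738 and 12579 (log2 fold change 1.27, limma adjusted p = 0.0213), while TPM2 fell from 1284 and 2079 to 306 and 433 (-2.16, 0.0133). EGR1, an immediate-early gene, rose in U937 from 11 and 15 to 35 and 84 (limma adjusted p = 0.0853) and fell in HL-60 from between 68 and 76 to between 10 and 23 (0.00423). The list medians were 0.31, 0.62 and -0.01. Of 10 tested kinases and partners of the p38 and MK2 group, none was called in MOLM-13 by limma (2 at an unadjusted p under 0.05), 1 fell in U937, and 1 rose and 1 fell in HL-60. MAPK13, a p38 kinase, fell in U937 from 274 and 731 to 56 and 76 (log2 fold change -2.76, limma adjusted p = 0.0179). In HL-60 the protein kinase C gene PRKCB rose (log2 fold change 0.84, limma adjusted p = 0.0226). PRKCA, another protein kinase C gene, was called lower there (-0.53, 0.0653), although its libraries overlap, at 882 to 1256 with pLKO and 586 to 908 with shRNF5. Medians of the p38 list were 0.07, 0.02 and 0.14.

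**Figure D5:**
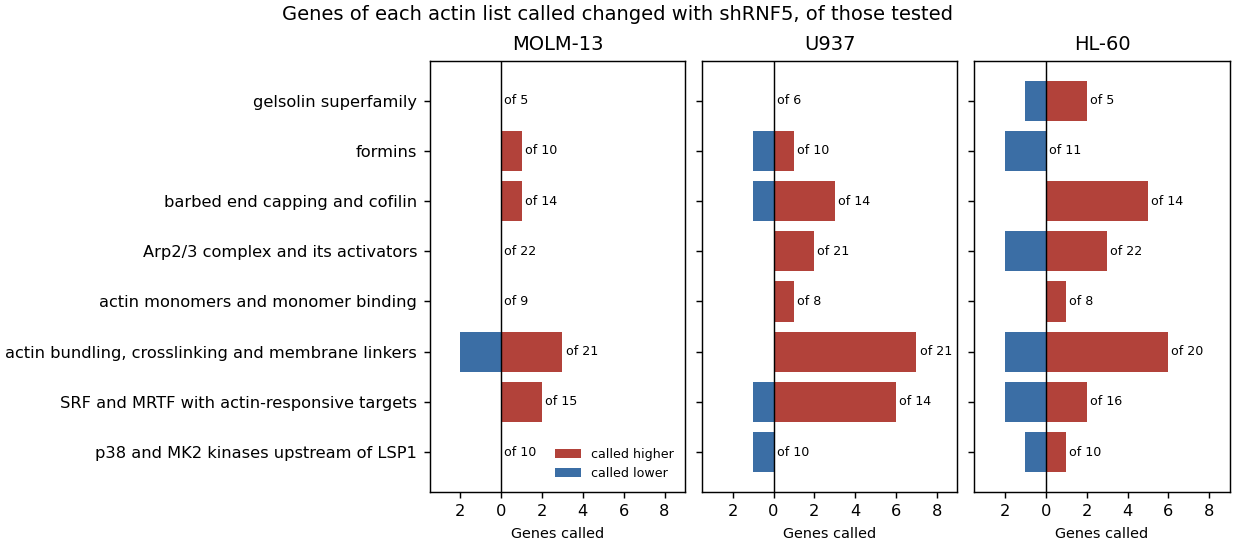
Number of genes of each actin-related list called higher (red, to the right) or lower (blue, to the left) with shRNF5 in each line, of the number tested printed beside the bar. Bundling and linker genes reached 7 rises of 21 in U937, and no gelsolin superfamily gene was called outside HL-60. The same thresholds were met by 2.04% of all genes tested for MOLM-13, 15.7% for U937 and 25.9% for HL-60.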

How the data were processed

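RNA-seq was analysed from 15 libraries, grouped by the line and construct in the labels. The authors mapped reads with STAR to hg19, took counts per gene from featureCounts and then normalized each line by edgeR through SARTools. The strand setting of the counting is not given in the sources used here. The deposited values are a score, since the normalized counts were rounded and filtered genes were set to 0. Reads per library were inferred from the step size of these values and limit low genes most.

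Responses were fitted on log2(value + 1) with limma 3.58.1 (R 4.3.3), separately by line, over genes above 0, using eBayes with its trend option. Python 3.11.15 was used for the rest. The inference of reads per library and the limma fit by line were each tested on simulated data. Coordinates and lengths came from GENCODE on GRCh37, the build of hg19. The members and lists were chosen with earlier results of these data known. A further gene list is not reported here. Named genes were the members, RNF5, up to 2 called genes with the largest rise and 2 with the largest fall in each list, and the 2 nearest genes to each member. PRPF40B and the uncalled relatives of the members were named after their values were seen. Libraries all differed from one another. Alternatives covered other pseudocounts (0.5, 10), a minimum mean of 50, a threshold of 0.05, the trend, scaling, one fit of 15 libraries, the replicate number as a block, and each library left out. The correction for transcript length was added after the data were examined.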

Additional observations from a re-analysis of the deposited data

Results flagged for a closer look

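The results below were picked out because the response of a member to RNF5-KD differed between 2 lines in the limma interaction test (adjusted p under 0.1). Values are differences in log2 fold change, first line minus second. Between MOLM-13 and U937 they were -3.36 for LSP1 and 2.23 for FMNL2. Between MOLM-13 and HL-60 they were -2.80 for GSN, -1.56 for CAPG, -2.15 for LSP1, 3.59 for FMNL2 and 1.14 for FMNL3. Between U937 and HL-60 they were -2.31 for GSN, -2.23 for CAPG, 1.37 for FMNL2, 1.66 for FMNL3 and 0.66 for DIAPH1. The signs of GSN and CAPG had HL-60 above both other lines, and FMNL2 ran from MOLM-13 through U937 to HL-60. No group had 4 or more libraries, so none was checked for a library far from the rest.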

How the results depend on the processing

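The members called in HL-60 numbered from 4 to 6 under every alternative run, where from 15.7% to 28.5% of all tested genes were called, and the calls of GSN, CAPG and FMNL2 there held in all of them. At an adjusted p under 0.05, no member was called in MOLM-13 (0.299% of all genes) or U937 (6.26%), where 5 and 4 had an unadjusted p under 0.05 in limma, and 3 members differed between MOLM-13 and HL-60 (3.25% of all genes). Without the mean-variance trend, 0 were called in MOLM-13 (0.422% of all genes) and 0 in U937 (3.61%), with 5 and 2 at an unadjusted p under 0.05. One fit of all libraries gave 4 in U937, where it called 36.1% of all genes. Leaving out 1 library gave from 0 to 3 members in MOLM-13, with from 0.00768% to 6.69% of all genes called, and from 0 to 2 in U937, with from 0 to 2369 of 13165 genes called. It gave from 2 to 5 members that differed between MOLM-13 and HL-60, with from 0.443% to 11.9% of all genes. Where this left an arm with 1 library, as in U937, that library was assumed to vary like the others. The deviations of libraries with the same number in the labels correlated at -0.133 and -0.447 in MOLM-13 and at 0.255 in U937. In HL-60 they correlated at 0.386, 0.120 and -0.047, which differ in sign and did not show a pairing. In an arm of 2 libraries the deviations mirror each other, so these values cannot settle pairing in MOLM-13 or U937. File names number the MOLM-13 shRNF5 libraries otherwise, and by them the correlations were 0.447 and 0.266, but 2 pairs are too few to show a pairing. With the replicate block from the labels, 1 member was called for MOLM-13, where 5.67% of all genes were called and DIAPH1 was not (limma adjusted p = 0.113), and 5 for HL-60 (28.5% of all genes). A replicate block from the file names gave 5 members in MOLM-13, where 19.2% of all genes were called against 2.04% without a block. It added GSN (log2 fold change -0.62, limma adjusted p = 0.00064), FMNL1 (0.46, 0.00734) and FMNL2 (1.13, 0.00335). In that block pLKO replicate 1 has no partner, so these log2 fold changes equal those of the fit without it. The spread then rests on 2 pairs, and the block is no separate check. U937 shares 1 number between constructs, so no block could be fitted there.

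Uncalled values near 0 changed sign. CAPG in MOLM-13 was 0.025 with the length correction and 0.039 with the block from the file names, and DAAM1 in MOLM-13 was 0.13 with the replicate block. The FMNL1 difference between MOLM-13 and U937 was 0.018 with median-ratio scaling and 0.071 with the length correction. With 1 library left out, log2 fold changes ran from -0.27 to 0.039 for CAPG and -0.19 to 0.13 for DAAM1 in MOLM-13. In U937 they ran from -0.62 to 0.14 for GSN, -0.018 to 0.84 for FMNL1 and -0.14 to 0.52 for DIAPH2, and in HL-60 from -0.017 to 0.11 for DAAM1 and -0.012 to 0.13 for DIAPH1. Differences ran from -0.44 to 0.42 for FMNL1, -0.43 to 0.17 for DIAPH1 and -0.21 to 0.45 for DIAPH2 between MOLM-13 and U937, from -0.22 to 0.10 for DAAM1 between MOLM-13 and HL-60, and from -0.25 to 0.61 for FMNL1 between U937 and HL-60. No called value changed sign. Scaling every library to the same sum moved 14 of 27 ratios of pLKO levels between lines by more than the spread of the libraries, and turned none. The cause of these changes was not tested.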
